A study of Mus musculus with 9 samples.

Results

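The 46 genes described here are imprinted genes of the mouse, that is, genes read mainly from the chromosome inherited from one parent. They were chosen by name from general knowledge of imprinting. The rule uses no measured value, although earlier results of these data were known when it was made. In the deposited tables of 56691 genes, 45 of the 46 were found by symbol, and Nespas was found by its Ensembl identifier because the tables list it as Gnasas1. Of the 46, 22 are expressed from the maternal chromosome and 23 from the paternal one, in all tissues or only in some. Gnas belongs to neither list because its promoters are used from different parental chromosomes.

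The RNA-seq libraries came from embryoid bodies (EBs) made from BVSC mouse pluripotent stem cells (PSCs), a line that carries the reporters Blimp1-mVenus (BV) and Stella-CFP. BV+ cells, which the study calls primordial germ cell-like cells (PGCLCs), and BV- cells were separated by flow cytometry, and the methods give day 5 as the day of collection for BV+ cells. NRF1, a DNA-binding transcription factor of genes for respiration, was overexpressed (NRF1 OE) from a doxycycline-inducible p20 vector, and the control (Ctrl) carried the empty vector. EBs of both vectors received doxycycline (1.5 μg/ml) between days 2 and 5. There were 9 libraries in 4 groups: BV+ NRF1 OE (n = 2), BV+ Ctrl (n = 2), BV- NRF1 OE (n = 3) and BV- Ctrl (n = 2). All came from the same reporter line. The methods call replicates biological without saying whether they were separate cultures, and the p-values measure the spread between these libraries.

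Most imprinted genes lie in clusters. In a cluster a control region carries DNA methylation from the egg or from the sperm, and that mark decides which parental copy is read. Many products act on fetal growth: Igf2, Plagl1, Dlk1 and Peg3 are expressed from the paternal copy, while H19, Cdkn1c, Grb10 and Igf2r are expressed from the maternal copy and restrain growth. Germ cells erase these methylation marks during their development and set them again later according to the sex of the embryo. RNA read counts carry no information on the parental copy, so the values below are levels of both copies together and say nothing of whether an imprint was kept.

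Total counts per library ranged from 13702162 to 19625460. Levels are given as CPM, a gene's count scaled to the size of its library after TMM correction. Differences are log2 fold changes with their standard error (SE) from edgeR, which fitted the 9 libraries together and used its quasi-likelihood F test. A gene was called when its Benjamini-Hochberg adjusted p over the 16903 genes tested was under 0.05. In each comparison of groups, every imprinted gene called had groups that did not overlap, so a lack of overlap adds no support to a call. Between NRF1 OE and Ctrl in BV+ cells, 25 of the 46 lay wholly higher, 12 wholly lower and 9 overlapped, called or not. This share was not counted over all genes, so it is not shown to be particular to the imprinted genes. Of the 46 imprinted genes 45 were tested, and Slc22a3, an organic cation transporter, had too few counts, with at most 0.181 CPM in any library. Nrf1, the targeted gene, was at 95.7 and 99.4 CPM in BV+ NRF1 OE, 91.1 and 90.4 in BV+ Ctrl, 119, 122 and 126 in BV- NRF1 OE and 99.1 and 105 in BV- Ctrl. Every NRF1 OE library was above the Ctrl libraries of the same cells, but the gene was not called between NRF1 OE and Ctrl. Its log2 fold change was 0.10 in BV+ cells (adjusted p = 0.489) and 0.26 in BV- cells (adjusted p = 0.0718). Between BV+ and BV- cells Nrf1 was called lower in BV+ cells with NRF1 OE (log2 fold change -0.33, adjusted p = 0.0431). With Ctrl it was not called (log2 fold change -0.17, adjusted p = 0.819). By the methods the transgene was an Nrf1 cDNA amplified from mouse PSCs, so reads of its coding part could be counted on this gene. NRF1 OE below stands for the libraries so labelled. Prdm1, the gene whose reporter defined the sort, was at 53.3 and 56.4 CPM in BV+ NRF1 OE, 57.5 and 62.8 in BV+ Ctrl, 62, 42.4 and 59.8 in BV- NRF1 OE and 58.6 and 57.3 in BV- Ctrl. Of 9 markers of primordial germ cells, none was called between BV+ and BV- cells with Ctrl by edgeR, 2 had an unadjusted p under 0.05, and with NRF1 OE 3 were called lower in BV+ cells. Summed, the 9 were at 397 and 440.4 CPM in BV+ NRF1 OE, 446 and 457 in BV+ Ctrl, 605, 520.5 and 513 in BV- NRF1 OE and 499 and 475 in BV- Ctrl. Every BV+ library was thus below every BV- library, which goes against the name PGCLCs, and BV+ and BV- below are the labels of the libraries. Ctrl and NRF1 OE libraries also differed in their trend over transcript GC content, and the counts of genes called with this trend removed are given for each comparison.

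Per length of transcript, as the authors' FPKM averaged over the 9 libraries, H19 was the most abundant with 190.4 FPKM, followed by Mest with 160.1, Snrpn with 130.2 and Peg10 with 63.2. Slc38a4, Cd81, Impact, Igf2r and Mcts2 lay between 24.3 and 60.8 FPKM. Igf2 averaged only 0.807 FPKM, and Airn, Zim1, Slc22a18 and Kcnq1ot1 were all under 0.2 FPKM.

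Summed over the 22 maternally expressed genes, the level was 3838 and 2455 CPM in BV+ NRF1 OE, 1971 and 2089 in BV+ Ctrl, 1427, 1482 and 1358 in BV- NRF1 OE and 1569 and 1463 in BV- Ctrl. Without H19, the same sums were 1829 and 1505, 1551 and 1688, 1277, 1229 and 1249 and 1472 and 1347 CPM, so the maternal sums of BV+ NRF1 OE then overlapped those of BV+ Ctrl. Summed over the 23 paternally expressed genes, the level was 2886 and 2801 CPM in BV+ NRF1 OE, 2566 and 2554 in BV+ Ctrl, 2098, 1844 and 1975 in BV- NRF1 OE and 2355 and 2240.0 in BV- Ctrl. The paternal sums of the 4 groups did not overlap, with BV+ NRF1 OE highest and BV- NRF1 OE lowest. Peg3 alone gave 640.2 and 490.1 CPM of these sums in BV+ NRF1 OE and 298 and 302 in BV+ Ctrl. Without Peg3 the paternal sums of BV+ NRF1 OE overlapped those of BV+ Ctrl.

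**Figure D1:**
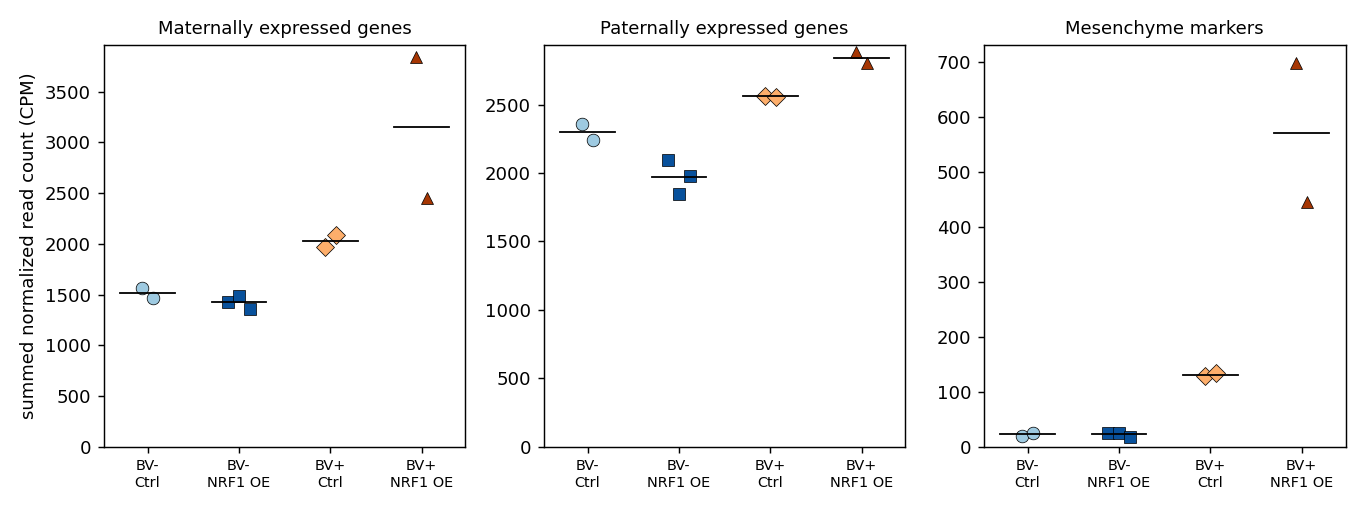
Summed CPM per library (points) and group mean (short lines) for the 22 maternally expressed genes, the 23 paternally expressed genes and the 6 mesenchyme markers in the 4 groups. Both imprinted sums are highest in BV+ NRF1 OE, where the mesenchyme markers reach 698 and 446 CPM. Col1a2 alone gives 602 and 368 CPM of that mesenchyme sum.

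The first comparison was of the libraries labelled NRF1 OE with Ctrl in BV+ cells. Among the imprinted genes 13 were called higher and 2 lower, against 6.24% of all genes tested called higher and 1.78% called lower. The 13 were H19, Osbpl5, Cdkn1c, Igf2, Nnat, Dlk1, Plagl1, Ndn, Grb10, Peg3, Gnas, Sgce and Trappc9, and the 2 were Meg3 and Rian. Maternally expressed genes accounted for 5 of the higher and both of the lower calls, and paternally expressed genes for 7 higher and 0 lower. At the study's own threshold, an unadjusted p under 0.05 with a log2 fold change above 0.58 in size, 14 were higher and 3 lower, where 17.0% of all genes passed in either direction. The median log2 fold change was 0.434 over the maternally and 0.159 over the paternally expressed genes, and 0.0359 over all genes tested. The maternal median was 0.197 and the paternal 0.276 with the GC trend removed.

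Of the genes named above as restraining growth, H19, Cdkn1c and Grb10 rose, and Igf2r was not called (log2 fold change 0.25, SE 0.11, adjusted p = 0.149). H19, a long noncoding RNA that is processed to a growth-restraining microRNA, measured 2008 and 951 CPM with NRF1 OE and 419.8 and 401 CPM with Ctrl (log2 fold change 1.85, SE 0.37, adjusted p = 0.021). Cdkn1c, which encodes the cell cycle inhibitor p57, was at 57.3 and 33 CPM with NRF1 OE and 14.6 and 17 CPM with Ctrl (log2 fold change 1.51, SE 0.22, adjusted p = 0.0125). Grb10, an adaptor that dampens insulin and growth factor receptors, had 405 and 269 CPM with NRF1 OE and 157 and 158 CPM with Ctrl (log2 fold change 1.10, SE 0.27, adjusted p = 0.0368). In all 3 genes the NRF1 OE libraries lay above both Ctrl libraries, and in each the Ctrl libraries were close together while the NRF1 OE libraries were far apart.

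The 4 paternally expressed genes named with them were also called higher. Igf2, a fetal growth factor encoded beside H19, was at 19.4 and 9.09 CPM with NRF1 OE and 5.18 and 4.93 CPM with Ctrl (log2 fold change 1.50, SE 0.41, adjusted p = 0.048). Dlk1, a transmembrane protein related to Notch ligands, measured 24.9 and 14.4 CPM with NRF1 OE and 8.52 and 7.76 CPM with Ctrl (log2 fold change 1.28, SE 0.25, adjusted p = 0.0209). Plagl1, a zinc finger transcription factor known to act on other imprinted genes, had 62.9 and 34.4 CPM with NRF1 OE and 20.8 and 22.2 CPM with Ctrl (log2 fold change 1.18, SE 0.23, adjusted p = 0.0198). None of these overlapped between the groups. Peg3, a zinc finger protein of the paternal copy, was at 640.2 and 490.1 CPM with NRF1 OE and 298 and 302 CPM with Ctrl (log2 fold change 0.91, SE 0.23, adjusted p = 0.0391), with both NRF1 OE libraries above both Ctrl libraries.

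The other genes called higher have varied functions. Gnas, the alpha subunit of the stimulatory G protein, was at 205 and 136 CPM with NRF1 OE and 93 and 92.5 CPM with Ctrl (log2 fold change 0.88, SE 0.18, adjusted p = 0.0246). Osbpl5, an oxysterol-binding protein of the Kcnq1 cluster, had 12.3 and 6.69 CPM with NRF1 OE and 3.15 and 2.78 CPM with Ctrl (log2 fold change 1.68, SE 0.39, adjusted p = 0.0326). Sgce, the epsilon subunit of the sarcoglycans, measured 31.2 and 24.9 CPM with NRF1 OE and 15.1 and 16.3 CPM with Ctrl (log2 fold change 0.84, SE 0.16, adjusted p = 0.0177). For all of these the groups did not overlap. Trappc9, a subunit of a vesicle trafficking complex, showed the smallest rise among the called genes with 42.8 and 38.7 CPM with NRF1 OE and 27.4 and 29.6 CPM with Ctrl (log2 fold change 0.52, SE 0.13, adjusted p = 0.0392).

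Ndn, a MAGE family protein of neurons, was at 22.7 and 18.4 CPM with NRF1 OE and 9.63 and 9.44 CPM with Ctrl (log2 fold change 1.11, SE 0.18, adjusted p = 0.0127), and Nnat, a small membrane protein of nervous tissue, at 47.1 and 31.6 CPM with NRF1 OE and 14.9 and 16.7 CPM with Ctrl (log2 fold change 1.32, SE 0.26, adjusted p = 0.0216). Their groups did not overlap. Both Ndn and Nnat carry the 8 letters GCATGCGC, the core of the GC-rich motif that NRF1 is known to bind, shortly before their start site. The motif GCATGCGC and its reverse complement GCGCATGC were searched on the promoter windows of RefSeq, 250 bases before to 50 bases after each start, of which 37 of the 46 imprinted genes had at least 1. The motif stood in the windows of 3 imprinted genes, Commd1, Ndn and Nnat, or 8.11% of the 37, beside 824 of 27025 genes, or 3.05%, in the whole RefSeq table. Counted by window, it was in 3 of 58 (5.17%) for the imprinted genes and in 891 of 32851 (2.71%) for all. The windows are described because NRF1 is the factor named in the labels, and a match of letters is not a bound site. The 250 bases before the start of each gene are shown 5′ to 3′ on the strand of the gene, from GRCm38.p6, with the motif in capitals.
Ndn, chr7:62348027-62348276 on the plus strand: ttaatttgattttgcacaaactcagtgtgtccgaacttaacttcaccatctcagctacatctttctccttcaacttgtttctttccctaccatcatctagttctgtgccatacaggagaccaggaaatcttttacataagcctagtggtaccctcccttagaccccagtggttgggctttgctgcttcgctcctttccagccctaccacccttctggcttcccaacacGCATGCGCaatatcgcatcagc
Nnat, chr2:157559828-157560077 on the plus strand: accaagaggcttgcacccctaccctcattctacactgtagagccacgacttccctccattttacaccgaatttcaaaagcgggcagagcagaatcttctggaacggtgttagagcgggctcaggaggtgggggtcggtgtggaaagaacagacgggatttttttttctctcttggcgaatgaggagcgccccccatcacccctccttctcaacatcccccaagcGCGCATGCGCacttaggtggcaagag
Commd1, chr11:22972867-22973116 on the minus strand: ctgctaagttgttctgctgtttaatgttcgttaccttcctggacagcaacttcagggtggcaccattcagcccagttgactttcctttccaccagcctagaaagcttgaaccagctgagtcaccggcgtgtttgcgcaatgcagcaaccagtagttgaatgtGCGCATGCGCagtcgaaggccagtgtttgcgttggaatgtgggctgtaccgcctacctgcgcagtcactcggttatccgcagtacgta

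In Ndn the motif began 22 bases before the start. In Nnat the 2 spellings overlap in a run of letters that reads the same on both strands and begins 26 bases before the start, and Commd1 has the same run 88 bases before its start. The upstream stretches of Nnat and Commd1 held 12 and 13 CG dinucleotides, and that of Ndn 5. Commd1, a regulator of copper balance and of endosomal sorting, had a log2 fold change of 0.39 in BV+ cells (SE 0.15, adjusted p = 0.106) and 0.42 in BV- cells (SE 0.14, adjusted p = 0.0515), so it was not called in either. Its levels were 68.4 and 52.5 CPM with NRF1 OE and 46.9 and 45.6 CPM with Ctrl in BV+ cells and 60.7, 73.5 and 66.9 CPM with NRF1 OE and 48.3 and 51.6 CPM with Ctrl in BV- cells, with every NRF1 OE library above every Ctrl library of the same cells.

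The genes called lower were long noncoding RNAs of the Dlk1-Dio3 cluster, which are expressed from the maternal copy. Meg3 was at 157 and 115 CPM with NRF1 OE and 223 and 278 CPM with Ctrl (log2 fold change -0.88, SE 0.18, adjusted p = 0.0221). Rian, the host of many small nucleolar RNAs, was at 277 and 239 CPM with NRF1 OE and 388 and 433 CPM with Ctrl (log2 fold change -0.67, SE 0.14, adjusted p = 0.0263). In both genes the NRF1 OE libraries lay below both Ctrl libraries. Mirg, the microRNA host at the end of the same transcribed region, had 13.6 and 12 CPM with NRF1 OE and 16.6 and 19.5 CPM with Ctrl and was not called. Dlk1, at the opposite end of the cluster and expressed from the other parental copy, was called higher, and the ratio of the CPM of Dlk1 to that of Meg3 was 0.159 and 0.125 in the NRF1 OE libraries and 0.0382 and 0.028 in the Ctrl libraries.

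Markers of other cell types moved with these results. Of 6 mesenchyme markers (5 tested), Col1a1, Col1a2 and Col3a1, which encode fibrillar collagens, were called higher with NRF1 OE in BV+ cells, and Pdgfra was called lower. The 6 together reached 698 and 446 CPM with NRF1 OE, but 128 and 134 with Ctrl in BV+ cells, and between 18.6 and 25.8 in the BV- libraries. Most of this sum in BV+ cells was Col1a2, with 602 and 368 CPM with NRF1 OE and 99.8 and 102 with Ctrl. Prrx1 and Twist1, regulators of mesenchyme, reached at most 3.56 CPM in any library. Of 5 mesoderm markers tested 1 was called higher, Kdr, and of 6 neural markers 1, Nes, with 0 of either list called lower and a median log2 fold change of 0.478 and -0.0238. Of 10 endoderm markers 0 were called higher and 1 lower, Cubn; all 10 had negative log2 fold changes, with a median of -0.678 and sums of 72.7 and 70.6 CPM with NRF1 OE against 120.1 and 132 with Ctrl. Cubn alone gave 20.35 and 24.8 CPM of the endoderm sums with NRF1 OE and 62 and 73.3 with Ctrl. Of 8 pluripotency markers 0 were called higher and 2 lower, Zfp42 and Klf4. Of 6 trophoblast markers tested none was called by edgeR and 1 had an unadjusted p under 0.05; the 8 listed summed to 24.5 and 23.5 CPM with NRF1 OE against 22.4 and 23.2 with Ctrl, and Cdx2 and Elf5 among them were at most 0.221 CPM in every library. In all 13 genes called higher, NRF1 OE replicate 1 lay above replicate 2, as did the mesenchyme sum. This order was not counted over all genes called higher, so it is not shown to be particular to the imprinted genes. Replicates 1 and 2 also differed in their trend over GC content (Spearman's rho 0.295 and 0.0286). The part of these other cells in the imprinted genes' change was not tested, and in bulk libraries a change in the share of a cell type and a change in RNA per cell cannot be told apart.

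The number of imprinted genes called in BV+ cells rested on few libraries. It was 0 without BV+ NRF1 OE replicate 1, 0 without BV+ Ctrl replicate 1 and 0 without BV+ Ctrl replicate 2, and 28 without BV- NRF1 OE replicate 2, which enters through the shared estimate of the spread. With the trend over GC content and length removed, 14 were called: Igf2, Rian and Trappc9 no longer passed (adjusted p = 0.0576, 0.0743 and 0.0767), and Usp29 and Mirg did (0.00669 and 0.0208). Numbers of all genes called in these refits are not given, so the changes are not shown to be particular to the imprinted genes.

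In BV- cells the same comparison gave 4 imprinted genes called higher, Nnat, Ndn, Trappc9 and Cd81, and 5 called lower, Ppp1r9a, Ube3a, Peg10, Meg3 and Rian. Of all genes tested, 10.2% were called higher and 6.98% lower in these cells. At the study's threshold 4 imprinted genes were higher and 4 lower, where 16.0% of all genes passed. Nnat was at 13.1, 22.4 and 13.9 CPM with NRF1 OE and 6.93 and 9.29 CPM with Ctrl (log2 fold change 1.01, SE 0.26, adjusted p = 0.0354). Ndn was at 14.5, 19.4 and 16.8 CPM with NRF1 OE and 9.96 and 11.1 CPM with Ctrl (log2 fold change 0.68, SE 0.16, adjusted p = 0.0327). In both, all 3 NRF1 OE libraries were above both Ctrl libraries. Trappc9 had 36.5, 41.8 and 41.1 CPM with NRF1 OE and 28.2 and 30.1 CPM with Ctrl (log2 fold change 0.45, SE 0.12, adjusted p = 0.0368), and Cd81, a tetraspanin, had 168, 204 and 197 CPM with NRF1 OE and 135 and 149.5 CPM with Ctrl (log2 fold change 0.41, SE 0.12, adjusted p = 0.0411). These rises were smaller, again without overlap between the groups.

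Of the genes called lower in BV- cells, Peg10, a gene derived from a retrotransposon and needed for the placenta, fell from 449 and 367 CPM with Ctrl to 291, 273 and 278 CPM with NRF1 OE (log2 fold change -0.54, SE 0.10, adjusted p = 0.0317). Its neighbour Ppp1r9a, which encodes the actin-binding protein neurabin, was at 64.1, 33.2 and 45.5 CPM with NRF1 OE and 97 and 66 CPM with Ctrl (log2 fold change -0.77, SE 0.24, adjusted p = 0.0475). Ube3a, a ubiquitin ligase that is imprinted in neurons, was at 80.8, 45 and 70.4 CPM with NRF1 OE and 115 and 108 CPM with Ctrl (log2 fold change -0.77, SE 0.20, adjusted p = 0.0353). None overlapped, although the highest Ppp1r9a value with NRF1 OE was close to the lowest with Ctrl. Meg3 measured 162, 152 and 129 CPM with NRF1 OE and 238 and 189 CPM with Ctrl (log2 fold change -0.54, SE 0.16, adjusted p = 0.0447), and Rian 298, 264 and 235 CPM with NRF1 OE and 411 and 337 CPM with Ctrl (log2 fold change -0.49, SE 0.13, adjusted p = 0.0354), with all 3 NRF1 OE libraries below both Ctrl libraries. The median log2 fold change was 0.229 over the maternally and 0.00472 over the paternally expressed genes, and 0.00916 over all genes tested. The maternal median was -0.0401 with the GC trend removed, so its direction was not kept.

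Only 3 imprinted genes were called in BV- cells once the trend over GC content and length was removed: Meg3 (adjusted p = 0.0377), Ndn (0.0389) and Snrpn, a gene not called otherwise (log2 fold change 0.59, adjusted p = 0.0428). Rian then had a log2 fold change of -0.14 and an adjusted p of 0.473. The number was 0 without BV- NRF1 OE replicate 3, without either BV- Ctrl library and without either BV+ Ctrl library, and 19 without BV- NRF1 OE replicate 1. Over the genes tested with a known sequence, Spearman's rho of GC content with the log2 level of a gene in a library relative to its mean lay between -0.504 and -0.411 in the 4 Ctrl libraries, at 0.295 and 0.0286 in BV+ NRF1 OE, and at 0.0194, 0.614 and 0.463 in BV- NRF1 OE. This is a description across genes, which are not independent replicates. Among the markers, Krt7, a keratin of the trophoblast list and 1 of 6 tested there, and Col3a1 were called higher with NRF1 OE in BV- cells and Pdgfra lower, 4 of 9 germ cell markers were called higher, and 3 of 10 endoderm markers were called lower, and of 8 pluripotency markers 2 were called higher and 2 lower. Their part in these results was not tested.

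Ndn, Nnat and Trappc9 were called higher, and Rian and Meg3 lower, in both BV+ and BV- cells, 3 and 2 of the 45 tested, where 2.15% of all genes were called higher and 0.828% lower in both. With the GC trend removed only Ndn and Meg3 were called in both: Nnat missed in BV- cells (adjusted p = 0.0775), Trappc9 in BV+ (0.0767) and BV- cells (0.206), and Rian in BV+ (0.0743) and BV- cells (0.473).

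**Figure D2:**
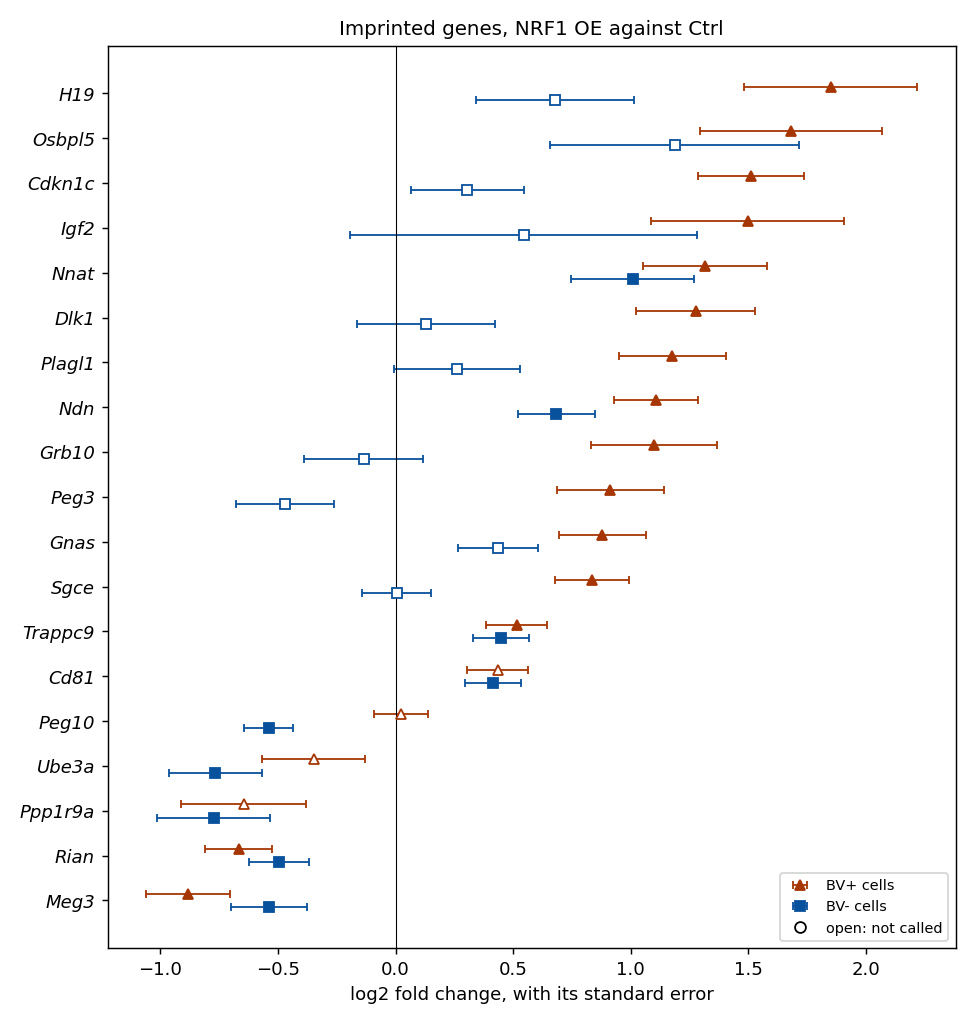
Log2 fold change (x axis) of NRF1 OE against Ctrl with its standard error for the imprinted genes called in BV+ cells (triangles) or BV- cells (squares); open symbols were not called. Nnat, Ndn and Trappc9 lie to the right, and Rian and Meg3 to the left, in both.

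The difference between the NRF1 OE effects in BV+ and BV- cells was tested as an interaction in the same edgeR fit. No imprinted gene and no other gene was called, which is 0.00% of the genes tested. Without adjustment, 9 imprinted genes had a p under 0.05 where 5.51% of all genes did, and 7 of them also passed the study's size threshold, beside 4.48% of all genes. With DESeq2 on the same genes, 1 imprinted gene, Peg3, was called. Peg3 was at 640.2 and 490.1 CPM with NRF1 OE and 298 and 302 CPM with Ctrl in BV+ cells and at 138, 73.3 and 113 CPM with NRF1 OE and 160.3 and 140.0 CPM with Ctrl in BV- cells. Every NRF1 OE library was above the Ctrl libraries in BV+ cells and below them in BV- cells, where the nearest values were close and the gene was not called (log2 fold change -0.47, SE 0.21, adjusted p = 0.117). Its log2 difference of effects was 1.39 (SE 0.31, adjusted p = 0.493 by edgeR and 0.00688 by DESeq2). The other 8 were Sgce (0.83), Cdkn1c (1.21), Peg10 (0.56), Grb10 (1.24), Dlk1 (1.15), Plagl1 (0.92), Mirg (-0.53) and H19 (1.17), given as log2 differences of effects, BV+ minus BV-. Genes called in BV+ cells only are therefore not shown to differ from BV- cells by this test.

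BV+ and BV- cells with Ctrl were compared to find what separates the sorted populations without added NRF1. Among the imprinted genes 6 were called higher in BV+ cells and 0 lower, against 1.10% of all genes tested called higher and 0.0237% called lower. At the study's threshold 11 were higher and 0 lower, where 5.74% of all genes passed. The genes called were Igf2, Plagl1, Grb10, H19, Cdkn1c and Dlk1, with 3 from the maternal and 3 from the paternal copy. All 6 are among the genes named above for fetal growth, which were not a list set in advance. Of the genes so named, Peg3 (log2 fold change 1.00, adjusted p = 0.0769) and Igf2r (log2 fold change 0.071, adjusted p = 0.9996) were not called by edgeR. Igf2 was at 5.18 and 4.93 CPM in BV+ cells and at 0.315 and 0.587 CPM in BV- cells (log2 fold change 3.43, SE 0.60, adjusted p = 0.0175), and the BV- values rest on 5 and 11 raw counts. Plagl1 was at 20.8 and 22.2 CPM in BV+ cells and at 4.16 and 3.74 CPM in BV- cells (log2 fold change 2.45, SE 0.26, adjusted p = 0.00125). For both genes the populations lay far apart.

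Grb10 had 157 and 158 CPM in BV+ cells and 27.7 and 50.6 CPM in BV- cells with Ctrl (log2 fold change 2.00, SE 0.28, adjusted p = 0.00552). H19 had 419.8 and 401 CPM against 96.8 and 116 CPM (log2 fold change 1.94, SE 0.37, adjusted p = 0.03), and Cdkn1c 14.6 and 17 CPM against 5.1 and 5.45 CPM (log2 fold change 1.58, SE 0.25, adjusted p = 0.00969). Dlk1 had 8.52 and 7.76 CPM against 2.14 and 3.26 CPM (log2 fold change 1.57, SE 0.29, adjusted p = 0.0245). No library of BV- cells reached the lowest BV+ value in any of the 6 genes. Leaving out each of the 4 Ctrl libraries of the comparison left between 1 and 3 genes called: 3 without BV+ Ctrl replicate 1, 2 without BV+ Ctrl replicate 2, 1 without BV- Ctrl replicate 1 and 2 without BV- Ctrl replicate 2. Plagl1 passed in every one of these fits, with adjusted p up to 0.0278. With the GC trend removed 8 were called, with Osbpl5 (adjusted p = 0.031) and Nnat (0.0191) added. In the same comparison 3 of 5 mesenchyme markers tested (Col1a1, Col1a2, Col3a1), 1 of 5 of mesoderm (Kdr), 1 of 6 neural (Nes) and 1 of 6 of trophoblast (Krt7) were called higher in BV+ cells, and 0 of any marker list were called lower. Their part in these results was not tested.

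With NRF1 OE, 16 imprinted genes were called higher in BV+ than in BV- cells and 2 lower, where 9.90% and 3.85% of all genes were called. At the study's threshold 17 were higher and 2 lower, where 14.7% of all genes passed. The 6 genes named above were again among the higher ones. This comparison shares no library with the former, but both come from the same fit and its shared estimate of the spread. Plagl1 was at 62.9 and 34.4 CPM in BV+ and 4.33, 5.01 and 4.86 CPM in BV- cells (log2 fold change 3.36, SE 0.23, adjusted p = 4.4e-06). Grb10 was at 405 and 269 CPM against 30.6, 31.3 and 45.1 CPM (log2 fold change 3.24, SE 0.25, adjusted p = 1.01e-05), and H19 at 2008 and 951 CPM against 150.1, 253 and 109 CPM (log2 fold change 3.12, SE 0.33, adjusted p = 9.21e-05). These are differences in level of several fold, without overlap. Igf2 was at 19.4 and 9.09 CPM against 1.32, 0.295 and 0.355 CPM (log2 fold change 4.39, SE 0.46, adjusted p = 8.2e-05), Cdkn1c at 57.3 and 33 CPM against 5.96, 6.78 and 6.87 CPM (log2 fold change 2.79, SE 0.21, adjusted p = 8.9e-06), and Dlk1 at 24.9 and 14.4 CPM against 2.83, 3.17 and 2.96 CPM (log2 fold change 2.72, SE 0.24, adjusted p = 2.7e-05).

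Peg3 was at 640.2 and 490.1 CPM in BV+ and 138, 73.3 and 113 CPM in BV- cells with NRF1 OE (log2 fold change 2.38, SE 0.21, adjusted p = 2.28e-05), and Osbpl5 at 12.3 and 6.69 CPM against 1.08, 1.92 and 1.48 CPM (log2 fold change 2.68, SE 0.37, adjusted p = 0.000592). Peg10 was at 510.4 and 561 CPM against 291, 273 and 278 CPM (log2 fold change 0.93, SE 0.10, adjusted p = 0.000134) and Sgce, which shares a promoter region with it, at 31.2 and 24.9 CPM against 14.1, 15.7 and 13.1 CPM (log2 fold change 0.98, SE 0.14, adjusted p = 0.000795). All 4 were higher in every BV+ library. Gnas had 205 and 136 CPM against 80.6, 105 and 86.5 CPM (log2 fold change 0.91, SE 0.17, adjusted p = 0.0038), and Nnat 47.1 and 31.6 CPM against 13.1, 22.4 and 13.9 CPM (log2 fold change 1.26, SE 0.23, adjusted p = 0.00439). Usp29, a ubiquitin protease next to Peg3, had 17.1 and 15.2 CPM against 8.61, 5.08 and 6.22 CPM (log2 fold change 1.28, SE 0.19, adjusted p = 0.00108). Asb4, a subunit of ubiquitin ligases, was low, with 3.61 and 4.3 CPM against 1.63, 0.442 and 1.48 CPM (log2 fold change 1.70, SE 0.42, adjusted p = 0.0195).

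Airn, the antisense RNA of the Igf2r cluster, and Slc22a18, a solute carrier, were close to the limit of detection. Airn had 62 and 15 raw counts in BV+ and 1, 2 and 1 in BV- libraries with NRF1 OE (log2 fold change 4.45, SE 0.72, adjusted p = 0.00174), and Slc22a18 had 24 and 14 and 0, 0 and 4 (log2 fold change 3.46, SE 0.81, adjusted p = 0.0154). The size of a fold change from so few counts is uncertain. Lower in BV+ cells were Mirg, with 13.6 and 12 CPM against 19.9, 22.8 and 18 CPM (log2 fold change -0.66, SE 0.15, adjusted p = 0.0122), and Snrpn, a small nuclear ribonucleoprotein, with 239 and 245 CPM against 325, 369 and 308 CPM (log2 fold change -0.46, SE 0.10, adjusted p = 0.0123). The median log2 fold change between BV+ and BV- cells was 0.0568 over the maternally and 0.17 over the paternally expressed genes with Ctrl, and 0.16 and 0.284 with NRF1 OE. Over all genes tested it was -0.00978 and -0.00492. With the GC trend removed 21 were called, with Igf2r (adjusted p = 0.00666), Ube3a (0.00885) and Mest (0.00884) added, all higher in BV+ cells.

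Markers moved with this comparison too. Of 5 mesenchyme markers tested 3 were called higher in BV+ cells (Col1a1, Col1a2, Col3a1), while Pdgfra and Twist1 were not called. Called higher were also 2 of 5 mesoderm markers tested (Kdr, Hand1), 2 of 6 neural markers (Nes, Sox1) and 2 of 6 trophoblast markers (Hand1, which stands in both lists, and Krt7). Called lower were 3 of 9 germ cell markers (Tfap2c, Dppa3, Nanos3), 5 of 10 endoderm markers (Apoa1, Ttr, Amn and Cubn with the largest differences), 3 of 8 pluripotency markers (Pou5f1, Klf2, Esrrb) and 1 of 4 epiblast markers. Their part in the result was not tested.

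**Figure D3:**
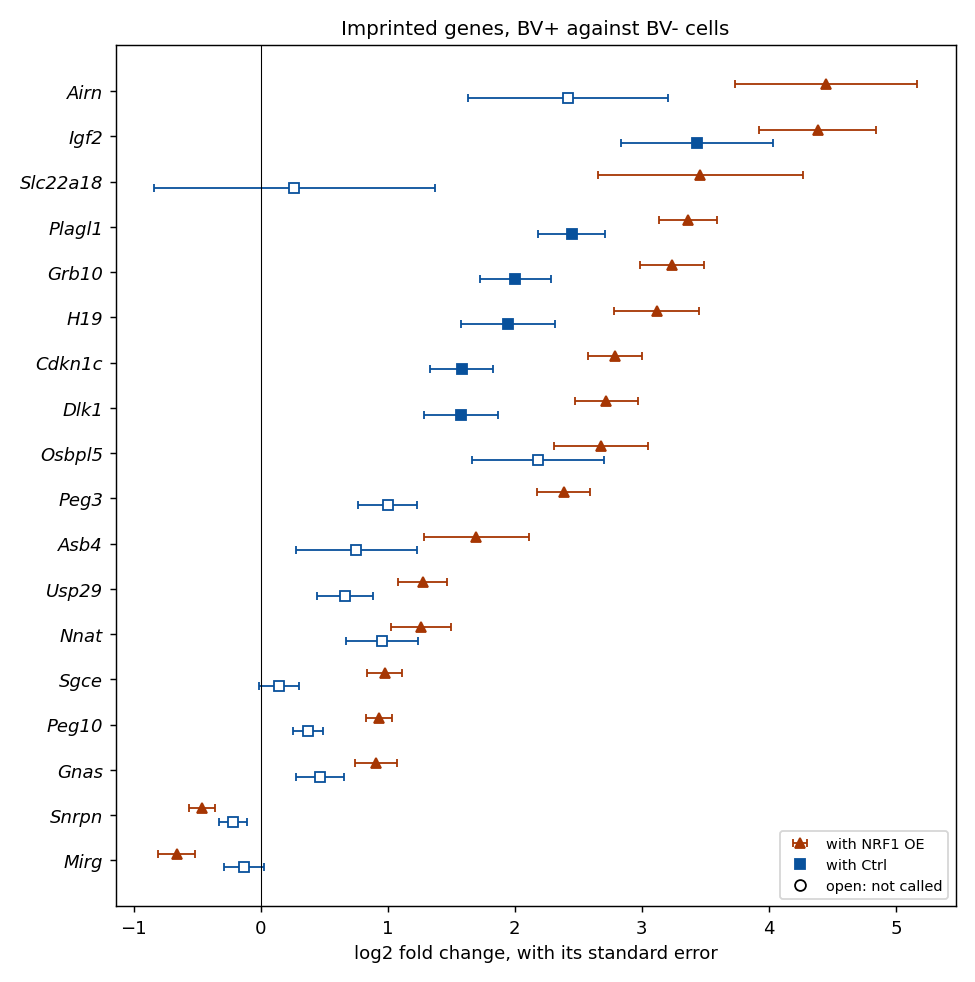
Log2 fold change (x axis) of BV+ against BV- cells with its standard error for the imprinted genes called with NRF1 OE (triangles) or with Ctrl (squares); open symbols were not called. With Ctrl the filled squares are Igf2, Plagl1, Grb10, H19, Cdkn1c and Dlk1, and only Snrpn and Mirg lie left of 0 with NRF1 OE.

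Pairs of genes at a shared locus were set side by side. In BV+ cells Nnat had a log2 fold change of 1.32 with NRF1 OE, while Blcap, which surrounds it, had 0.32 (adjusted p = 0.145). In BV- cells the values were 1.01 and 0.23 (adjusted p of Blcap 0.21). Blcap was at 28.4 and 27.6 CPM with NRF1 OE and 21.2 and 23.8 CPM with Ctrl in BV+ cells and at 24.5, 27.1 and 26.9 CPM with NRF1 OE and 20.2 and 24.4 CPM with Ctrl in BV- cells, a narrow range. Trappc9 was called in both populations, and Peg13, the noncoding RNA within it, had log2 fold changes of -0.041 and 0.17 (adjusted p = 0.91 and 0.571). In both pairs the gene that was called in both populations is protein coding, but so is Blcap, which was not called.

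Both members of the H19 and Igf2 pair rose in BV+ cells, whereas in BV- cells the log2 fold change was 0.68 for H19 (adjusted p = 0.156) and 0.55 for Igf2 (adjusted p = 0.613). The CPM of Igf2 divided by that of H19 was 0.00967 and 0.00956 in BV+ NRF1 OE and 0.0123 and 0.0123 in BV+ Ctrl. Sgce rose in BV+ cells and Peg10 did not (log2 fold change 0.022, SE 0.12, adjusted p = 0.907), whereas in BV- cells Peg10 fell and the log2 fold change of Sgce was 0.0047 (adjusted p = 0.985). Peg10 was at 510.4 and 561 CPM with NRF1 OE and 537 and 518 CPM with Ctrl in BV+ cells, and Sgce at 14.1, 15.7 and 13.1 CPM with NRF1 OE and 13.7 and 14.7 CPM with Ctrl in BV- cells. Peg3 rose in BV+ cells, and Usp29 was at 17.1 and 15.2 CPM with NRF1 OE and 10.2 and 9.76 CPM with Ctrl there (log2 fold change 0.70, SE 0.21, adjusted p = 0.0607). In BV- cells Usp29 had 8.61, 5.08 and 6.22 CPM with NRF1 OE and 6.37 and 6.25 CPM with Ctrl (log2 fold change 0.081, SE 0.21, adjusted p = 0.797) and Peg3 a log2 fold change of -0.47 (adjusted p = 0.117).

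Dlk1 in BV- cells was at 2.83, 3.17 and 2.96 CPM with NRF1 OE and 2.14 and 3.26 CPM with Ctrl (log2 fold change 0.13, SE 0.29, adjusted p = 0.77), so of the Dlk1 and Meg3 pair only Meg3 was called there. Gnas in BV- cells was at 80.6, 105 and 86.5 CPM with NRF1 OE and 63.8 and 70.4 CPM with Ctrl (log2 fold change 0.44, SE 0.17, adjusted p = 0.0861). Its antisense RNA Nespas had log2 fold changes of -0.43 in BV+ and -0.027 in BV- cells (adjusted p = 0.273 and 0.948). Neither was called in BV- cells. Igf2r, the receptor that removes IGF2, was at 311 and 298 CPM with NRF1 OE and 255 and 256 CPM with Ctrl in BV+ cells (log2 fold change 0.25, SE 0.11, adjusted p = 0.149) and at 237, 218 and 268 CPM with NRF1 OE and 249 and 236 CPM with Ctrl in BV- cells (log2 fold change -0.012, SE 0.10, adjusted p = 0.945). Airn, read across it, had 62 and 15 raw counts with NRF1 OE against 14 and 19 with Ctrl in BV+ cells (log2 fold change 1.07, SE 0.54, adjusted p = 0.193), and 1, 2 and 1 against 3 and 3 in the same order in BV- cells (log2 fold change -0.97, SE 1.12, adjusted p = 0.549).

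Mcts2 and Zrsr1 are retrogenes that arose from Mcts1 and Zrsr2, so their counts can share reads with near-identical copies and are uncertain. H13, a signal peptide peptidase, was at 76.1 and 57.9 CPM with NRF1 OE and 46.7 and 48.4 CPM with Ctrl in BV+ cells (log2 fold change 0.49, SE 0.16, adjusted p = 0.071) and at 53.5, 68.7 and 57.9 CPM with NRF1 OE and 45.4 and 49 CPM with Ctrl in BV- cells (log2 fold change 0.35, SE 0.15, adjusted p = 0.105). Mcts2 within it was at 21.9 and 20.1 CPM with NRF1 OE and 19.7 and 19 CPM with Ctrl in BV+ cells (log2 fold change 0.12, SE 0.13, adjusted p = 0.538) and at 23.8, 27.2 and 24.6 CPM with NRF1 OE and 21.7 and 21.9 CPM with Ctrl in BV- cells (log2 fold change 0.21, SE 0.12, adjusted p = 0.218). Neither was called. Zrsr1 lies within Commd1 on the opposite strand, and exons of both overlap in the annotation. In BV+ cells Zrsr1 was at 18.1 and 21 CPM with NRF1 OE and 26 and 27.5 CPM with Ctrl (log2 fold change -0.45, SE 0.18, adjusted p = 0.117). In BV- cells it was at 23.1, 15 and 19.2 CPM with NRF1 OE and 23.8 and 25.5 CPM with Ctrl (log2 fold change -0.37, SE 0.17, adjusted p = 0.125). Every NRF1 OE library was below every Ctrl library of its population, and Zrsr1 was not called.

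The remaining genes at 10 CPM or more on average were called in no comparison. Mest, a hydrolase-like protein of mesoderm, varied little, with 700.4 and 687 CPM with NRF1 OE and 623 and 619 CPM with Ctrl in BV+ cells and 587, 609 and 618 CPM with NRF1 OE and 607 and 637 CPM with Ctrl in BV- cells. Impact, a translational regulator, was at 177 and 214 CPM with NRF1 OE and 239.9 and 233 CPM with Ctrl in BV+ and 236, 140.5 and 176 CPM with NRF1 OE and 263 and 223 CPM with Ctrl in BV- cells, and the groups of BV- cells overlapped. Slc38a4, an amino acid transporter, was at 193 and 243 CPM with NRF1 OE and 296 and 286 CPM with Ctrl in BV+ cells. In BV- cells it was at 264, 195 and 245 CPM with NRF1 OE and 306 and 303 CPM with Ctrl. Zdbf2 was at 134 and 151 CPM with NRF1 OE and 172 and 188 CPM with Ctrl in BV+ and 128, 52.8 and 115 CPM with NRF1 OE and 183 and 157 CPM with Ctrl in BV- cells, and its lowest library, BV- NRF1 OE replicate 2, stood well below the others. Tssc4, a factor of spliceosome assembly, was at 33.1 and 24.3 CPM with NRF1 OE and 20.5 and 19.9 CPM with Ctrl in BV+ and 25.6, 30.7 and 27.5 CPM with NRF1 OE and 20.3 and 20.7 CPM with Ctrl in BV- cells, higher with NRF1 OE in each population without being called. Another 10 genes, Zim1, Rtl1, Dio3, Magel2, Slc22a3, Kcnq1ot1, Phlda2, Ascl2, Nespas and Peg13, were not called and averaged under 10 CPM, with single values from 0 to 16.1 CPM.

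**Figure D4:**
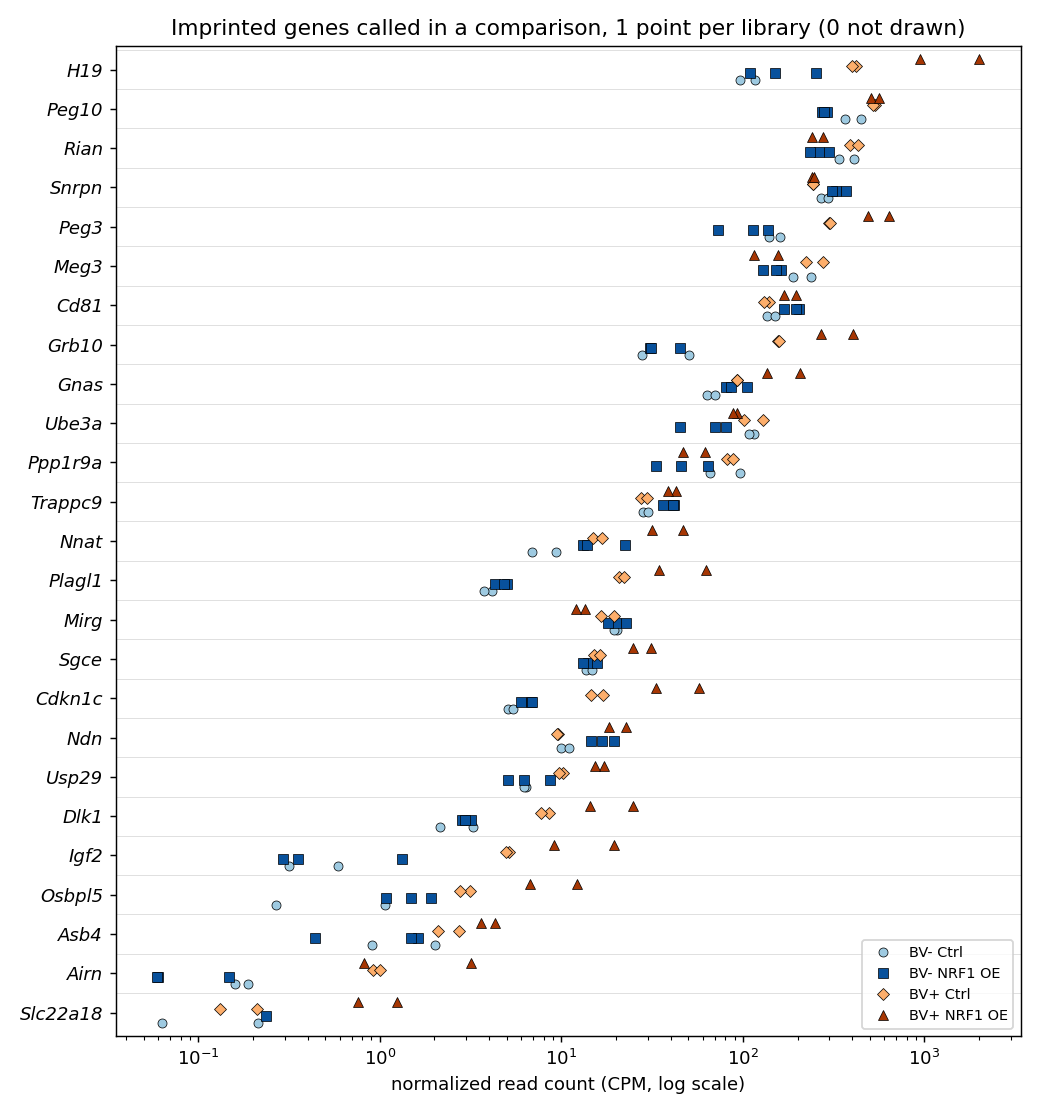
CPM on a log axis of the 25 imprinted genes called in at least 1 comparison, with a point for each library in the 4 groups; values of 0 (Slc22a18 in 2 BV- NRF1 OE libraries) are not drawn. H19 reaches 2008 and 951 CPM in BV+ NRF1 OE, and Igf2, Plagl1, Grb10, Cdkn1c and Dlk1 show BV+ libraries to the right of all BV- libraries.

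Other imprinted genes were taken from a list of 26 that holds none of the 46, of which 19 were tested. With NRF1 OE in BV+ cells 1 was called higher, Peg12, at 13.2 and 6.2 CPM with NRF1 OE and 3.01 and 3.62 CPM with Ctrl (log2 fold change 1.55, SE 0.35, adjusted p = 0.0324), and 0 lower. Of all genes tested, 6.24% were called higher and 1.78% lower. In this list 14 of the 19 had negative log2 fold changes, with a median of -0.142. The 26 summed to 1325 and 1655 CPM with NRF1 OE and 1894 and 1843 with Ctrl in BV+ cells. In BV- cells 1 was called higher, Dhcr7 (log2 fold change 0.55, SE 0.14, adjusted p = 0.0354), the last enzyme of cholesterol synthesis, and 0 lower. There 10.2% of all genes were called higher and 6.98% lower, and 12 of the 19 had negative log2 fold changes, with a median of -0.0998. Peg12 was also the gene called higher between BV+ and BV- cells with Ctrl (log2 fold change 2.26, SE 0.47, adjusted p = 0.0465), where 1.10% of all genes were called higher. With NRF1 OE, Peg12 (log2 fold change 2.53, SE 0.34, adjusted p = 0.000456) and Ano1 (log2 fold change 2.03, SE 0.40, adjusted p = 0.00651), a chloride channel, were called higher in BV+ cells, and Smoc1 was called lower (log2 fold change -0.47, SE 0.12, adjusted p = 0.0208). Of all genes, 9.90% were called higher and 3.85% lower there.

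Of 15 factors that set, keep or remove methylation imprints, 1 was called higher and 1 lower with NRF1 OE in BV+ cells, and 2 higher and 5 lower in BV- cells. Of all genes, 6.24% were called higher and 1.78% lower in BV+ cells, and 10.2% and 6.98% in BV- cells. Zfp57, a zinc finger protein that keeps imprints methylated in the embryo, was at 65.1 and 72.3 CPM with NRF1 OE and 109 and 119.7 CPM with Ctrl in BV+ cells (log2 fold change -0.73, SE 0.16, adjusted p = 0.0296) and at 73, 57.5 and 79.4 CPM with NRF1 OE and 117 and 94.1 CPM with Ctrl in BV- cells (log2 fold change -0.59, SE 0.15, adjusted p = 0.0338, named there after its values were seen). Dppa3, which protects methylation of the egg genome after fertilization and is also a germ cell marker, was at 96.6 and 86.3 CPM with NRF1 OE and 60.3 and 56.8 CPM with Ctrl in BV+ cells (log2 fold change 0.64, SE 0.14, adjusted p = 0.0252) and at 162, 144 and 124 CPM with NRF1 OE and 79.1 and 81.1 CPM with Ctrl in BV- cells (log2 fold change 0.84, SE 0.13, adjusted p = 0.0317). Zfp57 was thus lower and Dppa3 higher with NRF1 OE in both populations. In BV- cells Tet2 (log2 fold change -1.28, SE 0.27, adjusted p = 0.0317) and Tet1 (log2 fold change -0.96, SE 0.28, adjusted p = 0.0429), which oxidize methylated cytosine, and Zfp445 (log2 fold change -0.96, SE 0.23, adjusted p = 0.0325), which acts beside Zfp57, were also called lower. None of the 15 was called between BV+ and BV- cells with Ctrl by edgeR, and 2 had an unadjusted p under 0.05. With NRF1 OE 0 were called higher and 3 lower in BV+ cells, namely Dppa3 (log2 fold change -0.65, SE 0.13, adjusted p = 0.00536), Dnmt3l (log2 fold change -0.62, SE 0.14, adjusted p = 0.0127), a cofactor of methylation in germ cells, and Trim28 (log2 fold change -0.42, SE 0.10, adjusted p = 0.0191), the partner of Zfp57.

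Exons of 23 of the 46 genes overlap an exon of another gene in the GENCODE annotation, and no source used here says if the strand was considered when reads were counted. Counts of H19, Igf2, Plagl1, Cdkn1c, Nnat, Meg3, Rian, Mirg, Gnas, Nespas, Ube3a and Snrpn are uncertain to that extent. The same holds for Mest, Usp29, Kcnq1ot1, Cd81, Tssc4, H13, Zdbf2, Zrsr1, Commd1, Rtl1 and Slc22a3.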

How the data were processed

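Poly(A) RNA of sorted BV+ and BV- cells was sequenced, and the authors deposited a table for each of the 9 libraries with raw counts per gene and FPKM values. Per the methods and the processing notes, reads were trimmed with Cutadapt, mapped to GRCm39 with HISAT2 2.0.1 and counted with HTSeq 0.6.1; the strand setting is not given in the sources used here. The deposited FPKM were calculated by the authors from the counts and were used only to order levels between genes.

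Counts were tested with edgeR 4.0.16 in R 4.3.3 (quasi-likelihood F test, two-sided, TMM factors, filterByExpr, 4 group terms over 9 libraries), with Benjamini-Hochberg adjustment over 16903 genes of the 33142 with a count. DESeq2 1.42.0, other scalings, filters, a replicate block, offsets for GC content and length (mgcv 1.9.3), each library left out in turn and the study's threshold were tried as alternatives. The code was tested on simulated counts. GC content and length came from GENCODE on GRCm38, matched by gene identifier, and promoter windows from RefSeq on GRCm38.p6; no coordinate was carried between builds. Values in every library are given for genes called or at 10 CPM or more on average, and fold changes for genes called and for both genes of a pair at a shared locus. At most 4 called genes are named for each other list and comparison, apart from Zfp57 in BV- cells; some markers that were not called are given as levels. The imprinted genes and all lists were chosen with earlier results of these data known. Total counts of 13702162 to 19625460 limit the precision of genes under about 1 CPM.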

Additional observations from a re-analysis of the deposited data

Results flagged for a closer look

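Peg3 is given here because its libraries lay on opposite sides of Ctrl in the sorted populations. In BV+ cells both NRF1 OE libraries were above both Ctrl libraries, and the gene was called higher (log2 fold change 0.91, adjusted p = 0.0391). In BV- cells all 3 NRF1 OE libraries were below both Ctrl libraries, the nearest at 138 against 140.0 CPM, and the gene was not called (log2 fold change -0.47, adjusted p = 0.117). The log2 difference of the effects, BV+ minus BV-, was 1.39 (SE 0.31), with an unadjusted p of 0.000845 and an adjusted p of 0.493 in edgeR's test of the difference, so it failed the correction over all genes. DESeq2 on the same genes gave an adjusted p of 0.00688.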

How the results depend on the processing

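The number of imprinted genes called between BV+ and BV- cells with NRF1 OE (18) stayed between 12 and 21 under every alternative. The 15 called with NRF1 OE in BV+ cells became 26 with edgeR and 24 with DESeq2 on the 2 groups alone, and 0 to 28 when single libraries were left out. The 9 called in BV- cells became 19 without a filter on low counts, 3 with offsets for GC content and length, 0 with edgeR on the 2 groups alone, and 0 to 19 with a library left out. The 6 called between BV+ and BV- cells with Ctrl became 10 without the filter, 13 with edgeR and 11 with DESeq2 on the 2 groups alone, 11 at the study's threshold, and 1 to 9 with a library left out. For the difference of effects, 0 became 1 with DESeq2 on the same genes (Peg3), 4 without the filter (H19, Peg3, Grb10, Cdkn1c), 7 at the study's threshold, and 0 to 2 with a library left out (H19 and Peg3 without BV- NRF1 OE replicate 2). The causes were not tested. Numbers of all genes called under the alternatives are not given, here or above. These changes are therefore not shown to be particular to the imprinted genes.

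Whether replicate numbers pair the libraries is not known. Deviations of same-numbered libraries correlated at -0.032 between BV+ groups, -0.104 between Ctrl groups, 0.204 and 0.243 between BV- groups, and -0.138 and -0.295 between NRF1 OE groups. In a group of 2 libraries the deviations mirror each other, so 2 such groups give only 1 value. These correlations therefore cannot decide whether same-numbered libraries came from the same EBs. With a replicate block, 0 genes were called with NRF1 OE in BV+ cells, 0 in BV- cells, 5 between the populations with Ctrl and 17 with NRF1 OE. With the block and the GC content offsets together, 9 were called in BV+ and 0 in BV- cells. Crossing the numbers of BV- Ctrl, an alternative chosen after seeing the data, gave 6.

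With GC content offsets the median log2 fold change of NRF1 OE became 0.197 (maternal) and 0.276 (paternal) in BV+ cells and -0.0401 (maternal) in BV- cells. With a library left out, the paternal median between BV+ and BV- cells with NRF1 OE ranged from 0.183 to 0.489, and that of the difference from 0.158 to 0.392. Of 1661 refitted fold changes of single genes, 1388 kept direction and side of the threshold, 199 were no longer called, 42 became called and 32 changed sign, and each that changed sign was of a gene not called. These were Peg10 in BV+ cells with library size alone (-0.0162), upper-quartile factors (-0.0117), no filter (-0.00189), and edgeR (-0.0218) and DESeq2 (-0.00747) on the 2 groups alone. In BV- cells they were Sgce with DESeq2 (-0.00252), its size factors (-0.0023), library size alone (-0.0326), a mean of at least 10 counts (-0.0127) and DESeq2 on the 2 groups alone (-0.00169), and, with GC content offsets without and with the replicate block, Dlk1 (-0.244 and -0.258) and Blcap (-0.0402 and -0.108). With a library left out, folds in BV+ cells ranged from -0.0459 to 0.0923 for Peg10, -0.228 to 1.73 for Airn and -0.178 to 0.10 for Peg13. In BV- cells they ranged from -0.128 to 0.462 for Dlk1, -0.48 to 1.07 for Igf2, -0.101 to 0.0283 for Igf2r, -0.283 to 0.294 for Nespas, -0.0646 to 0.421 for Peg13, -0.0938 to 0.061 for Sgce and -0.15 to 0.205 for Usp29. Genes at a few counts, such as Airn and Slc22a18, are limited by depth.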
